A study of Homo sapiens with 8 samples.

Results

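A set of genes that ERK signaling is known to switch on and that, in turn, restrain or carry forward that signaling was examined in OVSAHO and KURAMOCHI, long-established lines of human ovarian cancer cells. They are the phosphatase genes DUSP4, DUSP5 and DUSP6, the Sprouty genes SPRY2 and SPRY4, the Spred genes SPRED1 and SPRED2, the transcription factor genes ETV4 and ETV5, and PHLDA1. These 10 members were chosen by name, with no threshold on their values, though with earlier results of these data known. They make up 10 of the 16951 named genes tested. Cells of each line were cultured with simvastatin, a statin that blocks HMG-CoA reductase, or with L-778123, an inhibitor of protein prenylation, giving 4 groups of 2 arrays: OVSAHO simvastatin, OVSAHO L-778123, KURAMOCHI simvastatin and KURAMOCHI L-778123. No array was of untreated or vehicle-treated cells, so a gene described as lower with simvastatin may equally be described as higher with L-778123. Concentrations and times of these cultures are not given in the sources used here, and nothing states that the replicate arrays came from separate cultures, so the p-values measure the spread between these arrays, which may be technical.

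The ERK cascade carries a signal from a growth factor receptor through RAS, RAF and MEK to ERK, which enters the nucleus and activates transcription. RAS proteins must be prenylated to reach the membrane, and the lipid for this comes from the mevalonate pathway that statins block, whereas L-778123 acts on the enzymes that attach the lipid. Cells with an active cascade raise a set of restraining genes, so the RNA of these genes is widely read as a measure of ERK output. The DUSP phosphatases remove phosphate from ERK itself, Sprouty proteins hinder the step from receptor to RAS, and Spred proteins bring the RAS inactivator neurofibromin to the membrane. ETV4 and ETV5 are ETS family transcription factors, and PHLDA1 is a pleckstrin homology-like protein induced by growth factor signaling.

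The letters just before the start of 3 members are printed here. Among members whose windows were read, DUSP6 and PHLDA1 were at least 2-fold lower with simvastatin in OVSAHO. SPRED1 was higher with simvastatin in KURAMOCHI under every alternative tried. The windows come from the RefSeq promoter table for GRCh38.p14, are written 5′ to 3′ on the strand of the gene, and hold the 250 bases before the annotated start. Capitals mark GGAA, the core of the sites bound by ETS factors, or its reverse complement TTCC. The DUSP6 window is chr12:89352502-89352751 on the minus strand, the PHLDA1 window is chr12:76031777-76032026 on the minus strand, and the SPRED1 window is chr15:38252586-38252835 on the plus strand.
DUSP6: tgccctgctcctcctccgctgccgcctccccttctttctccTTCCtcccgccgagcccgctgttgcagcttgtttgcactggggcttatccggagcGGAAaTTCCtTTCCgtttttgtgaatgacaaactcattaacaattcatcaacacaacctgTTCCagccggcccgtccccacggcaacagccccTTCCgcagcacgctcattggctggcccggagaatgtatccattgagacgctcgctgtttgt
PHLDA1: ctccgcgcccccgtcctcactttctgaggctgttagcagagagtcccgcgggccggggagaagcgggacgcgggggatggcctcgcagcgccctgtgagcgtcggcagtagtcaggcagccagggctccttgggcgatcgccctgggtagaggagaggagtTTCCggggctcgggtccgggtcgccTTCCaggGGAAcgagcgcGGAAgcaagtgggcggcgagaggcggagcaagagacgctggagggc
SPRED1: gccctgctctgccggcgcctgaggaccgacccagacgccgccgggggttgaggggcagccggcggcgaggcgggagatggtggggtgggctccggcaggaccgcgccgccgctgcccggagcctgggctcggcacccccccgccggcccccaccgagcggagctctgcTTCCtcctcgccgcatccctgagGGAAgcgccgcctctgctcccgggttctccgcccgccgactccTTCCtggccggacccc
GGAA was found 6 times before DUSP6, 4 times before PHLDA1 and 3 times before SPRED1, counting both strands, against a median of 3 over all 35116 windows, of which 92.7% held at least 1. Windows were read for 6 of the 10 members, 9 windows in all, the others being SPRY2, SPRY4 and SPRED2. GGAA was found 3, 4 and 4 times in the SPRY2 windows, 2 times before SPRY4, and 4 and 5 times in the SPRED2 windows. DUSP4 was left out of the search, as windows of members on its chromosome were not read. Also searched on both strands were TGAATGAA, letters that the repressor CIC is known to bind, TGANTCA, the site of AP-1, and TGACGTCA, the site of CREB. They occur in 1.40%, 6.57% and 1.65% of all windows, and in 0 of the 9 member windows that were read. A match, or the lack of one, describes these letters alone.

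All values below are log2 intensities relative to the 75th percentile of their array, so a level of 0 is as bright as that percentile, and they compare a probe between arrays, not different probes with each other. The 75th percentile itself lay between 324 and 437 in intensity, from 51.8% to 57.5% of probes were well above background, and 0 probes were saturated. Replicate arrays correlated at 0.995 to 0.996 over all tested probes, arrays of different drugs in the same line at 0.973 to 0.984 and arrays of different lines at 0.865 to 0.881. All 8 arrays lay on 1 slide, with each group in its own positions. A position effect and a group effect cannot be told apart, and the number of arrays limits the precision. All 10 ovarian serous carcinoma markers examined were above background on all 8 arrays, although MUC16 and CDH1 were low in KURAMOCHI, at most -2.10 and -2.23 as group means. In RNA of a whole culture, fewer cells of a kind and less RNA per cell cannot be told apart.

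The level of each member on every array showed that the drug groups separated in different ways in the 2 lines. In OVSAHO, DUSP6, ETV4, ETV5, SPRY2 and PHLDA1 were lower with simvastatin than with L-778123 and DUSP5 was higher. In KURAMOCHI, SPRY2, SPRED1, SPRED2, ETV4 and ETV5 were slightly higher with simvastatin and DUSP5 was lower. All 10 members, at every probe, were well above background on all 8 arrays.

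**Figure D1:**
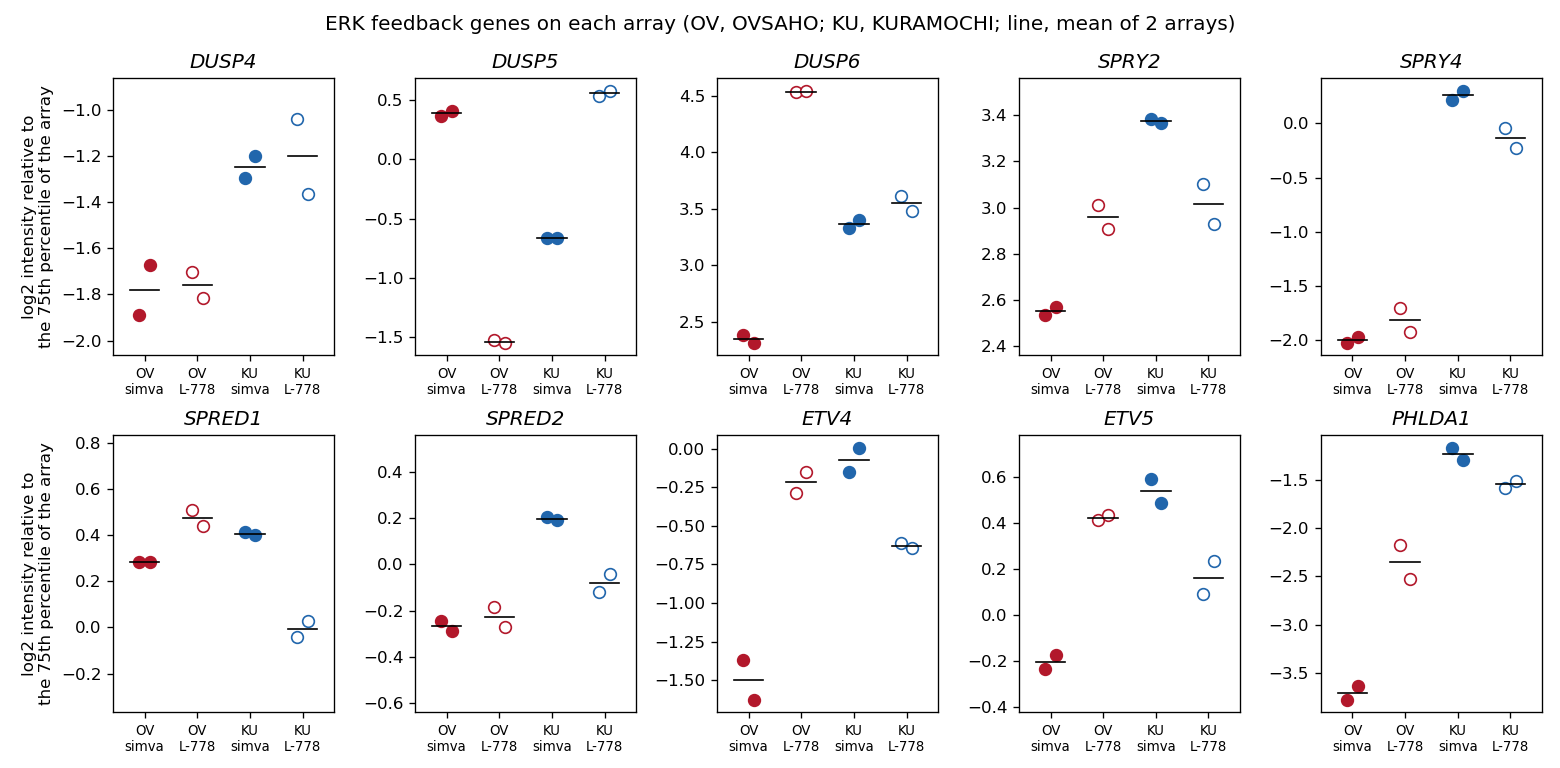
Level of each ERK feedback gene on every array, as log2 intensity relative to the 75th percentile of the array, with filled points for simvastatin, open points for L-778123 and a line at the mean of 2 arrays. DUSP6 ranges from 2.31 on an OVSAHO simvastatin array to 4.54 on an OVSAHO L-778123 array, with all 4 KURAMOCHI arrays between, and each panel has its own vertical scale.

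DUSP6 encodes a cytoplasmic phosphatase selective for ERK. Its level was 2.38 and 2.31 on the OVSAHO simvastatin arrays and 4.53 and 4.54 on the OVSAHO L-778123 arrays. In KURAMOCHI it was 3.33 and 3.41 with simvastatin and 3.62 and 3.48 with L-778123. The OVSAHO arrays were thus the lowest and the highest of the series, and the KURAMOCHI arrays lay between them and close together. DUSP6 was 4.57-fold lower with simvastatin in OVSAHO (log2 difference -2.19, SE 0.069, limma adjusted p = 2.55e-05), the largest difference of any member in that line. In KURAMOCHI the difference was -0.18 (SE 0.069, limma adjusted p = 0.0996), with a 95% confidence interval from -0.35 to -0.010.

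DUSP5 encodes a nuclear phosphatase that is also selective for ERK, and in OVSAHO it moved against DUSP6. Its level was 0.36 and 0.41 on the OVSAHO simvastatin arrays and -1.53 and -1.55 on the OVSAHO L-778123 arrays. With simvastatin in KURAMOCHI it was -0.66 and -0.67, and with L-778123 it was 0.54 and 0.58. No drug groups overlapped in either line, and the order of the drugs was opposite. DUSP5 was 3.80-fold higher with simvastatin in OVSAHO (log2 difference 1.93, SE 0.053, limma adjusted p = 2.04e-05) and 2.33-fold lower with simvastatin in KURAMOCHI (log2 difference -1.22, SE 0.053, limma adjusted p = 1.85e-04). DUSP5 was the member with the largest difference in KURAMOCHI.

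DUSP4, another nuclear phosphatase that acts on ERK and related kinases, gave overlapping values. It was -1.89 and -1.67 with simvastatin and -1.70 and -1.82 with L-778123 in OVSAHO, and -1.30 and -1.20 with simvastatin and -1.04 and -1.36 with L-778123 in KURAMOCHI. The drug difference was -0.020 in OVSAHO (95% confidence interval -0.35 to 0.31, limma adjusted p = 0.913) and -0.046 in KURAMOCHI (-0.37 to 0.28, limma adjusted p = 0.816). These intervals leave room for changes of the size seen for SPRED2 in KURAMOCHI, so a small difference was not detectable with 2 arrays a group.

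SPRY2 encodes a Sprouty adaptor, and its probe was brighter than the 75th percentile on all 8 arrays. Its level in OVSAHO was 2.54 and 2.57 with simvastatin and 3.01 and 2.91 with L-778123. In KURAMOCHI it was 3.38 and 3.37 with simvastatin and 3.10 and 2.93 with L-778123. Simvastatin arrays were the lower ones in OVSAHO and the higher ones in KURAMOCHI. The drug difference was -0.41 (SE 0.078, limma adjusted p = 0.00807) in OVSAHO and 0.36 (limma adjusted p = 0.0201) in KURAMOCHI, 1.33-fold and 1.28-fold.

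SPRY4, the other Sprouty gene of the set, was read by 2 probes that disagreed. At the brighter probe its level in OVSAHO was -2.03 and -1.97 with simvastatin and -1.70 and -1.93 with L-778123, and in KURAMOCHI it was 0.22 and 0.30 with simvastatin and -0.044 and -0.22 with L-778123. Every KURAMOCHI array was above every OVSAHO array at this probe. The drug difference was -0.18 (SE 0.10, limma adjusted p = 0.197) in OVSAHO and 0.39 (limma adjusted p = 0.0363) in KURAMOCHI. The dimmer probe was designed to another transcript and read between -3.26 and -2.89 on all 8 arrays. It gave -0.25 (limma adjusted p = 0.123) in OVSAHO and 0.058 (limma adjusted p = 0.734) in KURAMOCHI, so the KURAMOCHI difference of SPRY4 rests on 1 of its 2 probes.

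SPRED1 was 0.28 and 0.29 on the OVSAHO simvastatin arrays and 0.51 and 0.44 on the OVSAHO L-778123 arrays. In KURAMOCHI it was 0.41 and 0.40 with simvastatin and -0.043 and 0.030 with L-778123. The KURAMOCHI L-778123 arrays were below all others. SPRED1 was 1.33-fold higher with simvastatin in KURAMOCHI (log2 difference 0.41, SE 0.057, limma adjusted p = 0.00453), and this call was kept in all 17 alternatives. In OVSAHO the difference was -0.19 (limma adjusted p = 0.0381), a call that was lost in 13 of 17 alternatives, including each one that left out an array.

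SPRED2 was close to the 75th percentile in every group. It was -0.25 and -0.29 with simvastatin and -0.18 and -0.27 with L-778123 in OVSAHO, which overlap. In KURAMOCHI it was 0.21 and 0.19 with simvastatin and -0.12 and -0.040 with L-778123, which do not. The drug difference was -0.040 (limma adjusted p = 0.621) in OVSAHO and 0.28 (SE 0.062, limma adjusted p = 0.0211) in KURAMOCHI.

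ETV4, an ETS family factor of the PEA3 group, was -1.37 and -1.63 on the OVSAHO simvastatin arrays and -0.28 and -0.15 on the OVSAHO L-778123 arrays. In KURAMOCHI it was -0.15 and 0.0062 with simvastatin and -0.61 and -0.64 with L-778123. The OVSAHO simvastatin arrays stood well below the other 6. ETV4 was 2.43-fold lower with simvastatin in OVSAHO (log2 difference -1.28, SE 0.11, limma adjusted p = 4.39e-04) and 1.47-fold higher in KURAMOCHI (log2 difference 0.56, limma adjusted p = 0.0147).

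ETV5, of the same group of factors, followed the same order at a smaller size. Its level in OVSAHO was -0.23 and -0.17 with simvastatin and 0.41 and 0.43 with L-778123, and in KURAMOCHI it was 0.59 and 0.49 with simvastatin and 0.091 and 0.23 with L-778123. The drug groups did not overlap in either line. The difference was -0.63 (SE 0.074, limma adjusted p = 0.00137) in OVSAHO, 1.54-fold, and 0.38 (limma adjusted p = 0.0145) in KURAMOCHI, 1.30-fold.

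PHLDA1 gave a weak signal in OVSAHO cells with simvastatin, where its level was -3.78 and -3.63, or 26.7 and 26.1 in intensity. With L-778123 the OVSAHO arrays read -2.17 and -2.53, or 97.1 and 71.3 in intensity. In KURAMOCHI it was -1.17 and -1.29 with simvastatin and -1.58 and -1.51 with L-778123. PHLDA1 was 2.56-fold lower with simvastatin in OVSAHO (log2 difference -1.36, SE 0.13, limma adjusted p = 6.56e-04), and the KURAMOCHI difference was 0.32 (limma adjusted p = 0.123). At so low a signal the size depended on the background correction: with normexp, which adds an offset before the logarithm, the OVSAHO difference was -0.40 (limma adjusted p = 0.00247).

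Counted together, 6 of the 10 members passed at an adjusted p under 0.05 as lower with simvastatin in OVSAHO, where 25.1% of the 33753 tested probes did so, and 1, DUSP5, passed as higher, where 23.0% did. Of these, DUSP6, ETV4 and PHLDA1 were also at least 2-fold lower, where 6.19% of probes were, and DUSP5 was at least 2-fold higher, where 4.78% were. With normexp 1 of these 3, DUSP6, stayed at least 2-fold lower, ETV4 giving -0.98 and PHLDA1 -0.40. The median log2 difference of the members was -0.30, against 0.014 over all tested probes. In KURAMOCHI 6 members passed as higher with simvastatin, where 14.1% of probes did, and DUSP5 passed as lower, where 17.3% did. No member was at least 2-fold higher in KURAMOCHI, where 2.05% of probes were, and DUSP5 was the 1 member at least 2-fold lower, where 3.54% were. The median there was 0.34, against 0.0017 over all tested probes. The 6 small differences of KURAMOCHI, between 1.21-fold and 1.47-fold, lay near the limit of the test: with any of the 4 KURAMOCHI arrays left out, 2 members passed as higher.

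DUSP5, SPRY2, SPRED1, ETV4 and ETV5 passed in both lines in opposite directions, 5 of 10 members, where 2.50% of all tested probes did so. This count fell when arrays were left out: without any 1 of the 4 KURAMOCHI arrays it was 2, DUSP5 and either ETV4, ETV5 or SPRY2, and it was 4 or 5 without an OVSAHO array. SPRED1 was not in it whichever OVSAHO array was left out, and PHLDA1 was in it when an OVSAHO L-778123 array was left out. DUSP5 was the only member in it under all alternatives run. No member passed in both lines in the same direction, where 19.6% of probes did. DUSP6 passed in OVSAHO and was in the same direction in KURAMOCHI without passing. DUSP4 passed in neither line.

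**Figure D2:**
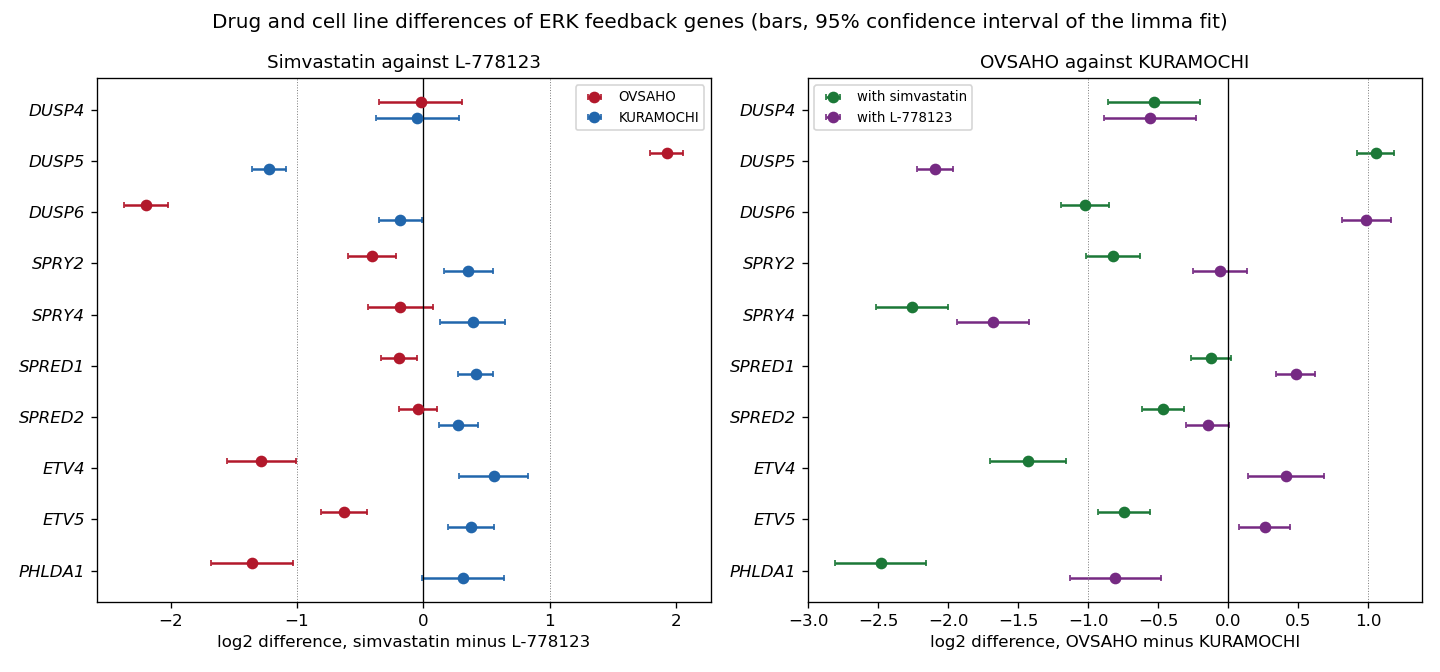
Log2 difference of each ERK feedback gene with its 95% confidence interval, for simvastatin minus L-778123 in each line (left) and for OVSAHO minus KURAMOCHI with each drug (right), with dotted lines at a 2-fold difference. On the left DUSP5 lies at 1.93 in OVSAHO and -1.22 in KURAMOCHI while most others lie below 0 in OVSAHO and above 0 in KURAMOCHI. On the right DUSP5, DUSP6, SPRED1, ETV4 and ETV5 change side with the drug.

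Whether the signed drug difference was the same in both lines was tested directly, as the drug difference in OVSAHO minus that in KURAMOCHI. DUSP5 gave 3.15 (SE 0.075, limma adjusted p = 1.31e-04), the only member that passed as higher, where 11.2% of all tested probes did. Lower values passed for 7 members, where 11.7% of probes did, and the median of the 10 was -0.68, against 0.0034 over all tested probes. DUSP6 gave -2.01 (SE 0.098, limma adjusted p = 3.70e-04), a 4.03-fold gap between the lines in how the drugs compared. The gap was -1.84 (limma adjusted p = 0.00148) for ETV4 and -1.003 (limma adjusted p = 0.00281) for ETV5. For PHLDA1 it was -1.67 (limma adjusted p = 0.00336), or -0.58 with normexp. Smaller gaps passed for SPRY2 at -0.76 (limma adjusted p = 0.00753), for SPRED1 at -0.60 (limma adjusted p = 0.00596) and for SPRY4 at -0.57 (limma adjusted p = 0.0415), the last of which was lost in 11 of 17 alternatives. At its dimmer probe SPRY4 gave -0.31 (limma adjusted p = 0.232). SPRED2, at -0.32 (limma adjusted p = 0.0506), and DUSP4, at 0.026 (95% confidence interval -0.44 to 0.49, limma adjusted p = 0.937), did not pass.

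**Figure D3:**
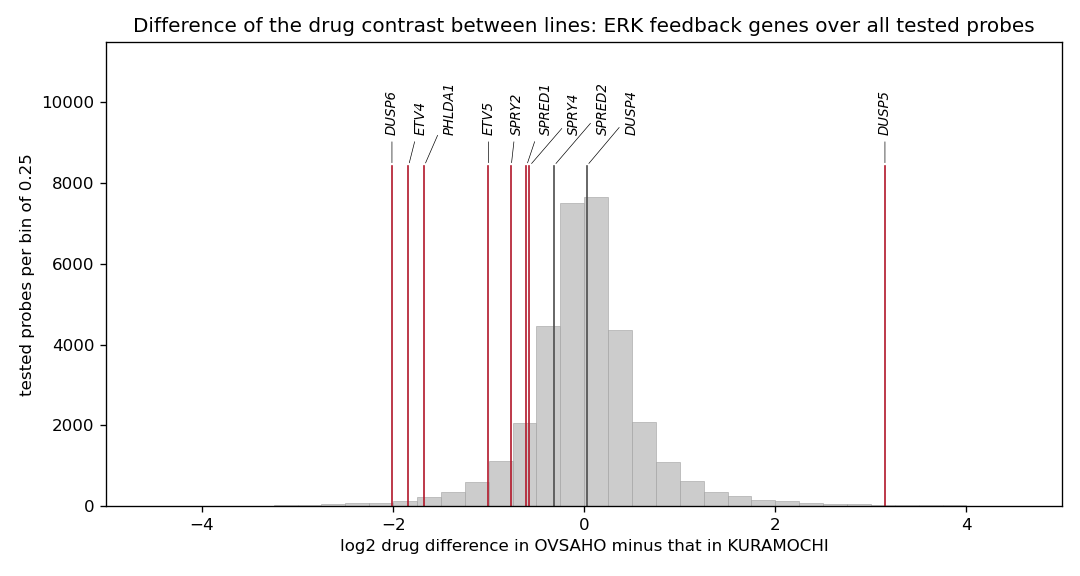
Number of tested probes in bins of 0.25 (vertical axis) by the log2 drug difference in OVSAHO minus that in KURAMOCHI (horizontal axis), with the 10 ERK feedback genes as vertical lines, red where the limma adjusted p is under 0.05. DUSP6, ETV4 and PHLDA1 lie in the left tail at -2.01, -1.84 and -1.67, DUSP5 lies in the right tail at 3.15, and SPRED2 and DUSP4 (grey) lie near the centre.

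The lines were also compared with each other, a comparison that uses the same arrays. With the drugs averaged, 8 members were lower in OVSAHO than in KURAMOCHI, where 37.4% of tested probes passed as lower, and 1, SPRED1, was higher, where 40.2% did. SPRY4 and PHLDA1 were at least 2-fold lower, where 16.1% of probes were, and no member was at least 2-fold higher, where 17.6% were. At its brighter probe SPRY4 was 3.91-fold lower in OVSAHO (log2 difference -1.97, SE 0.073, limma adjusted p = 2.47e-06), whereas its dimmer probe gave 0.059 (limma adjusted p = 0.535). PHLDA1 was 3.12-fold lower (log2 difference -1.64, limma adjusted p = 1.35e-05), and with normexp the log2 difference was -0.82, under 2-fold. DUSP6 averaged over the drugs gave -0.019 (limma adjusted p = 0.745).

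The average hid opposite differences within the drugs. With simvastatin, 8 members passed as lower in OVSAHO, where 34.3% of probes did, and DUSP5 passed as higher, where 36.6% did. With L-778123, 4 members, DUSP4, DUSP5, SPRY4 and PHLDA1, passed as lower, where 33.8% of probes did, and 4, DUSP6, SPRED1, ETV4 and ETV5, passed as higher, where 35.7% did. The dimmer probe of SPRY4 gave -0.096 with simvastatin (limma adjusted p = 0.487) and 0.21 with L-778123 (limma adjusted p = 0.149). DUSP6 was 2.03-fold lower in OVSAHO than in KURAMOCHI with simvastatin (log2 difference -1.02, limma adjusted p = 4.44e-05) and 1.98-fold higher with L-778123 (log2 difference 0.99, limma adjusted p = 5.41e-05). DUSP5 was 2.08-fold higher with simvastatin (log2 difference 1.05, limma adjusted p = 1.39e-05) and 4.27-fold lower with L-778123 (log2 difference -2.09, limma adjusted p = 1.53e-06). ETV4 was 2.69-fold lower with simvastatin (limma adjusted p = 7.72e-05) and 1.33-fold higher with L-778123 (limma adjusted p = 0.0171). DUSP4 was lower in OVSAHO by a like amount with both drugs, -0.53 (limma adjusted p = 0.0126) and -0.56 (limma adjusted p = 0.0107).

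The groups could be ordered by level for each member. DUSP5 was the only member in which all neighbours in the order differed: KURAMOCHI L-778123 was highest, by 0.17 over OVSAHO simvastatin (limma adjusted p = 0.0289), followed by KURAMOCHI simvastatin and OVSAHO L-778123. For DUSP6 the order was OVSAHO L-778123, KURAMOCHI L-778123, KURAMOCHI simvastatin and OVSAHO simvastatin, and the middle neighbours did not differ beyond their spread. ETV4 and ETV5 shared the order KURAMOCHI simvastatin, OVSAHO L-778123, KURAMOCHI L-778123 and OVSAHO simvastatin, in which the first pair did not differ beyond their spread (limma adjusted p = 0.278 and 0.208). SPRY2 was highest in KURAMOCHI simvastatin and lowest in OVSAHO simvastatin, with both L-778123 groups between them and 0.056 apart (limma adjusted p = 0.550). SPRED1 was lowest in KURAMOCHI L-778123, and no neighbours among the other groups differed. PHLDA1, SPRY4 at its brighter probe, SPRED2 and DUSP4 had the means of both KURAMOCHI groups above those of both OVSAHO groups. At the dimmer probe of SPRY4 the OVSAHO L-778123 mean, -2.90, was the highest. Neighbours that did not differ beyond their spread were the drugs in both lines for DUSP4, the drugs in KURAMOCHI for PHLDA1, the drugs in OVSAHO for SPRY4 and SPRED2, and the middle pair for SPRED2.

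The other genes of the pathway were read from lists by role, and their counts stand beside shares over all tested probes of 23.0% higher and 25.1% lower with simvastatin in OVSAHO and 14.1% higher and 17.3% lower in KURAMOCHI. Among 15 receptors of growth factors, 13 were tested, and with simvastatin in OVSAHO 5 passed as higher and 2 as lower, and in KURAMOCHI 6 passed as higher and 2 as lower. IGF1R, the receptor of insulin-like growth factors, was higher with simvastatin by 1.55 in OVSAHO (limma adjusted p = 3.36e-05) and by 0.55 in KURAMOCHI (limma adjusted p = 0.00168). The fibroblast growth factor receptor gene FGFR3 was higher by 1.19 and 0.56 (limma adjusted p = 1.39e-04 and 0.00377). Both receptors were thus higher with simvastatin in both lines.

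Of 13 ligands, 10 were tested, with 4 higher and 4 lower in OVSAHO and 1 higher and 3 lower in KURAMOCHI. NRG1, a ligand of ERBB receptors, was lower with simvastatin, with differences of -2.02 in OVSAHO and -1.29 in KURAMOCHI (limma adjusted p = 3.94e-05 and 3.66e-04). FGF18, a fibroblast growth factor, gave -1.46 and -0.79 (limma adjusted p = 3.36e-05 and 4.69e-04), and HBEGF, a ligand of the EGF receptor, gave -0.98 and -1.14 (limma adjusted p = 3.68e-04 and 5.49e-04). AREG, another EGF receptor ligand, was higher by 1.30 in OVSAHO (limma adjusted p = 0.0359) and was well above background on 1 of 4 arrays of KURAMOCHI. NRG1, FGF18 and HBEGF were thus lower with simvastatin in both lines.

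All 19 genes of the cascade itself, from adaptors to ERK and its kinases, were tested, with 6 higher and 6 lower in OVSAHO and 3 higher and 2 lower in KURAMOCHI. Of 10 genes that restrain the pathway by other means, 9 were tested, with 1 higher and 1 lower in OVSAHO and 1 higher and 3 lower in KURAMOCHI. IL17RD, which encodes the membrane inhibitor SEF, was lower with simvastatin in KURAMOCHI, at -1.03 (limma adjusted p = 5.81e-04) and gave 0.17 in OVSAHO (limma adjusted p = 0.102).

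Of the 8 other MAPK phosphatases 7 were tested. In OVSAHO 5 passed as higher with simvastatin, where 23.0% of all probes did, and 0 as lower, where 25.1% did. In KURAMOCHI 3 passed as higher and 1 as lower, where 14.1% and 17.3% did. DUSP1, an early response phosphatase that acts mainly on p38 and JNK, was higher in OVSAHO at 1.43 (limma adjusted p = 5.13e-05) and lower in KURAMOCHI at -0.44 (limma adjusted p = 0.00442), as DUSP5 was. DUSP2, an inducible nuclear phosphatase, was higher by 1.60 and 1.27 (limma adjusted p = 1.47e-04 and 7.62e-04). DUSP8 was higher by 1.15 in OVSAHO (limma adjusted p = 1.01e-04) and gave -0.18 in KURAMOCHI (limma adjusted p = 0.0760). Its other probes gave 1.19 and 0.60 in OVSAHO and 0.23 and -0.14 in KURAMOCHI. Of the 3 other genes of the Sprouty and Spred families, SPRY3 was higher by 1.02 in OVSAHO (limma adjusted p = 5.71e-04), 1 passed as lower there, and 1 passed as higher in KURAMOCHI.

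Of 10 further transcription factors that ERK acts on, 9 were tested, with 4 higher and 3 lower in OVSAHO and 4 higher and 1 lower in KURAMOCHI. ETV1, the third factor of the PEA3 group, went the way of ETV4 and ETV5, at -1.73 in OVSAHO (limma adjusted p = 1.04e-04) and 1.21 in KURAMOCHI (limma adjusted p = 8.00e-04). Of its other probes, 2 gave the same directions, each well above background on 4 of the 8 arrays. The remaining 1, well above background on all 8, gave 0.12 and 0.38. ETS1 was not well above background on any OVSAHO array, so no fold is given, although it is counted among the 4 above.

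Other genes that respond to ERK did not share a direction. Of 17, 16 were tested, with 9 higher and 4 lower in OVSAHO and 7 higher and 5 lower in KURAMOCHI. CCND1, which encodes cyclin D1, was lower with simvastatin, with differences of -2.04 in OVSAHO (limma adjusted p = 3.36e-05) and -0.56 in KURAMOCHI (limma adjusted p = 0.00373). JUNB, a part of AP-1, was higher by 1.92 and 0.99 (limma adjusted p = 2.43e-05 and 3.68e-04), and EPHA4, an ephrin receptor, was higher by 3.63 and 0.85 (limma adjusted p = 4.95e-05 and 0.0103). EGR2, an early growth response factor, was at least 2.13-fold higher with simvastatin in KURAMOCHI (limma adjusted p = 0.0251), since it was not well above background on either L-778123 array. EGR1 and FOS, named after their values were seen, made up the other at least 2-fold differences in KURAMOCHI, at 1.32 and 1.30 (limma adjusted p = 2.48e-04 and 6.51e-04). The early response genes EGR1 and JUNB were thus higher with simvastatin in OVSAHO as well, EGR1 by 1.06 (limma adjusted p = 1.48e-04), in the same cells in which DUSP6, ETV4 and CCND1 were lower.

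**Figure D4:**
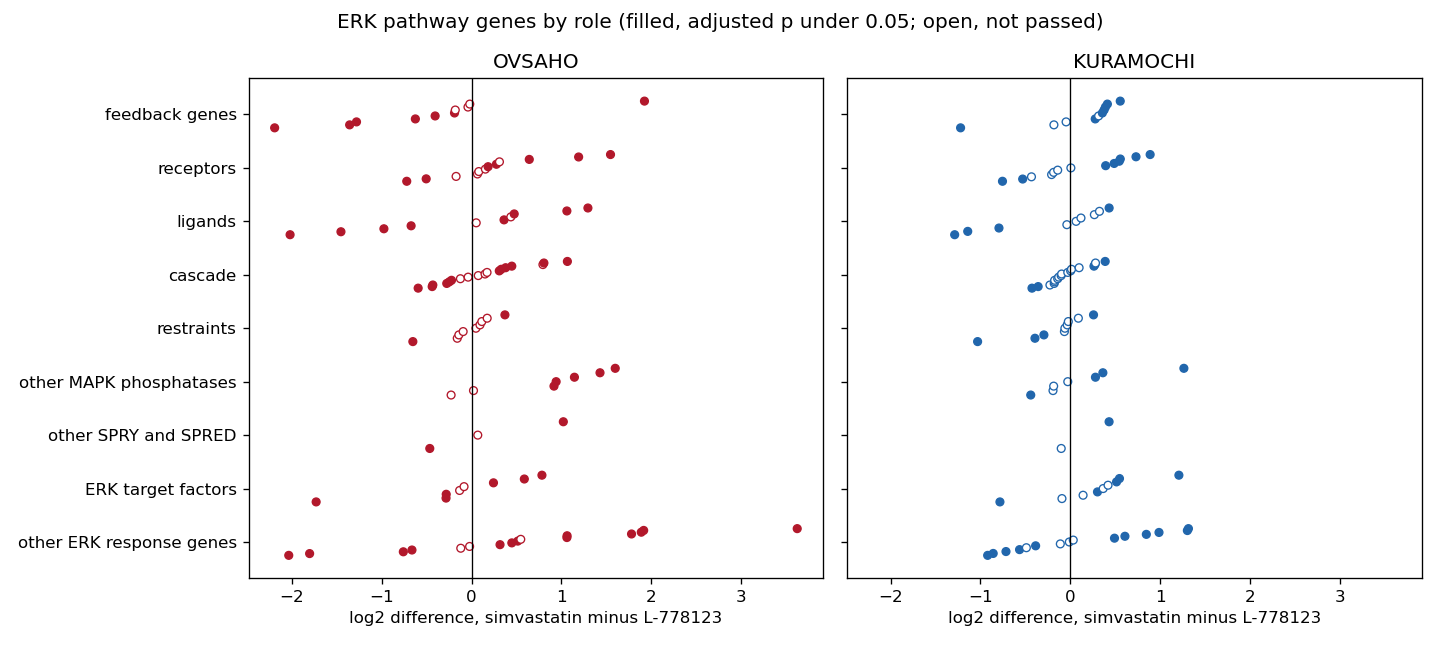
Log2 difference of simvastatin minus L-778123 (horizontal axis) for every tested gene of each list (rows), in OVSAHO (left) and KURAMOCHI (right), filled where the limma adjusted p is under 0.05. The feedback genes spread from -2.19 to 1.93 in OVSAHO and from -1.22 to 0.56 in KURAMOCHI, and genes not well above background on any array of a group being compared are left out.

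Markers of cell types were read beside these results. Relative to the 75th percentile, the serous carcinoma sum was 625 to 636 with simvastatin and 697 to 744 with L-778123 in OVSAHO. In KURAMOCHI it was 455 to 462 and 763 to 786. Of its 10 genes, 6 passed as higher with simvastatin and 2 as lower in OVSAHO, where 23.0% and 25.1% of tested probes did. In KURAMOCHI 2 passed as higher and 5 as lower, where 14.1% and 17.3% did. For the difference between lines 6 were higher and 1 lower, where 11.2% and 11.7% were. The endothelial list had 2 of 3 genes above background on all 8 arrays and PECAM1 on 0, and its summed intensity relative to the 75th percentile was 0.213 to 0.252 with simvastatin and 0.839 to 0.882 with L-778123 in OVSAHO, and 0.544 to 0.677 and 0.678 to 0.728 in KURAMOCHI. The OVSAHO difference came from the brighter probe of VWF, at -3.30 (limma adjusted p = 2.43e-05), whereas its other probe gave -0.053 (limma adjusted p = 0.705). It moved with DUSP6, and its part in that result was not tested. The fibroblast list had 3 of 4 genes above background on no array and COL1A1 above background in KURAMOCHI alone, with sums of 0.0362 to 0.0535 on OVSAHO arrays and 0.0924 to 0.271 on KURAMOCHI arrays. Of the immune list 2 of 4 genes were tested, of which 1 passed as higher in OVSAHO and 1 as lower in KURAMOCHI. The part of these genes in the results was not tested.

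The named genes whose pattern over the 8 arrays was most like that of DUSP6 were RASL11B, with a Pearson r of 0.998, WTIP at 0.993, PDE7B at 0.993, ANKS6 at 0.992 and MANF at 0.990, among 16928 genes compared. PDE7B was well above background on the 2 OVSAHO L-778123 arrays and on 0 of the other 6, so its r rests on values at background. The points share their arrays and fall into 4 groups, so r mainly describes the relative spacing of the group means. The RASL11B group means were -0.97, 1.38, 0.058 and 0.28 in OVSAHO simvastatin, OVSAHO L-778123, KURAMOCHI simvastatin and KURAMOCHI L-778123. This is the order of DUSP6, with the OVSAHO groups at the ends. An r of at least 0.95 was reached by 75 genes, 0.443% of those compared, and of at least 0.9 by 251 genes, 1.48%.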

How the data were processed

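Total RNA of the 4 groups was labeled with 1 dye and hybridized to 8 SurePrint G3 Human Gene Expression arrays. The authors extracted the images with Agilent Feature Extraction 11.5.1.1 and deposited, for each spot, a processed intensity corrected for background within the array, along with a table of intensity normalized between arrays, which was used as an alternative.

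Control and outlier spots were left out, spots of a probe were averaged, and the 75th percentile of each array was subtracted on the log2 scale. A probe was tested if 1 or more groups had it well above background on all their arrays, which 33753 of 58162 probes did. Tests used limma (version 3.58.1, R 4.3.3), with lmFit and eBayes, 1 mean per group and Benjamini-Hochberg adjustment over all tested probes. A difference passed at an adjusted p under 0.05. Gene symbols came from a RefSeq table through the accession of each probe, which matched 24764 of 50069 names, and a gene was read at its probe with the highest mean level. Names alone were taken from it, as its build is later than that of the array design, and the promoter windows come from a separate RefSeq table.

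A gene of another list was named if it was among the 4 largest differences of its list that also reached 2-fold in a drug comparison, and some genes are not reported here. The genes most like DUSP6 were the 5 with the highest Pearson r. The members and the lists were chosen with earlier results of these data known. In simulated arrays of 33753 probes, given the mean and spread of each real probe, the test recovered 87% of 200 changed probes with 9 false calls. Every planted change was more than 2-fold, and all other probes were unchanged. This recovery therefore does not apply to the smaller differences of most members. Alternatives tried were other filters, background corrections, normalizations and thresholds, the authors' table, the arrays of 1 line alone, a replicate block, the analysis of variance named in the methods, several probes of a gene taken by their median, and each array left out. The median spot signal was used for normexp, as the mean was not used here. Plots were made in matplotlib 3.10.9 (Python 3.11.15).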

Additional observations from a re-analysis of the deposited data

Results flagged for a closer look

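The drug difference of 8 members was not the same in OVSAHO and KURAMOCHI, by a limma test of the difference between the lines. Of all tested probes, 11.2% passed this test as higher and 11.7% as lower. The drug difference in OVSAHO exceeded that in KURAMOCHI by 3.15 for DUSP5. It was below that in KURAMOCHI for the other 7, with values of -2.01 for DUSP6, -1.84 for ETV4, -1.67 for PHLDA1, -1.003 for ETV5, -0.76 for SPRY2, -0.60 for SPRED1 and -0.57 for SPRY4. The call of SPRY4 was lost in 11 of 17 alternatives, and its dimmer probe gave -0.31 (limma adjusted p = 0.232). Groups of 2 arrays were too small to test single arrays as outliers.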

How the results depend on the processing

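The calls of DUSP5, DUSP6, ETV4, ETV5 and PHLDA1 in OVSAHO, of DUSP5 and SPRED1 in KURAMOCHI, and of the difference between lines for DUSP5, DUSP6, SPRY2, SPRED1, ETV4, ETV5 and PHLDA1 were kept in every alternative run. The least stable count was that of members higher with simvastatin in KURAMOCHI, 6 in the analysis reported. It was 2 without a filter on dim probes, 1 with the methods' analysis of variance, 2 with the arrays of the line alone and 1 at an adjusted p under 0.01, and 2 when any KURAMOCHI array was left out. Shares of all probes passing under each alternative are not given here, so a fall in a count need not be particular to the members. The count of members passing in both lines in opposite directions, 5, was examined under the same alternatives after the data were seen. It was 2 without the filter, 1 with the analysis of variance, 2 with the arrays of the line alone, 1 at an adjusted p under 0.01, and 2 to 5 with an array left out. In KURAMOCHI the calls of SPRY2, SPRED2, ETV4, ETV5 and SPRY4 were lost in 6, 7, 4, 5 and 10 alternatives. With normexp, 1 member in place of 3 was at least 2-fold lower with simvastatin in OVSAHO, ETV4 giving -0.98 and PHLDA1 -0.40, and 1 in place of 2 was at least 2-fold lower in OVSAHO than in KURAMOCHI. Medians of the members became -0.57 for the difference between lines and -0.38 for OVSAHO against KURAMOCHI. Leaving out 1 array moved the OVSAHO median between -0.38 and -0.26. Differences near 0 changed sign. With normexp DUSP4 and SPRY4 in OVSAHO became 0.036 and 0.034, and DUSP6 in OVSAHO against KURAMOCHI became 0.0038. With an array left out DUSP4 ranged from -0.13 to 0.088 in OVSAHO, from -0.21 to 0.12 in KURAMOCHI and from -0.14 to 0.19 for the difference between lines, SPRED2 ranged from -0.083 to 0.0027 in OVSAHO and DUSP6 from -0.052 to 0.015 in OVSAHO against KURAMOCHI. Without the filter the median of all probes shifted to 0.21 in OVSAHO. Replicate numbers were only shared, with correlations of 0.00085 to 0.056 between the deviations of samples of the same number. With the replicate block, 5 members in place of 6 passed as lower in OVSAHO and 5 in place of 6 as higher in KURAMOCHI, and SPRED1 in OVSAHO and SPRY4 in KURAMOCHI had limma adjusted p of 0.0654 and 0.0520, and SPRY4 had 0.0605 for the difference between lines; no other call of a member was lost. With 2 arrays a group the standard error of a drug difference was 0.053 to 0.13 for the members, and PHLDA1 was dim in OVSAHO with simvastatin.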
